A study of Mus musculus with 4 samples.

Results

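The genes described here are the replication-dependent histone genes, the clustered genes that encode the histones of newly made chromatin. They were found by symbol among the genes of the count table: older names beginning with Hist1h, Hist2h, Hist3h or Hist4h, or newer names H1f1 to H1f6, H2ac, H2bc, H3c and H4c with a number, leaving out pseudogenes. Of 28440 genes in the table, 58 met this rule, 4 of them only through an older symbol (H4f16, H2bu2, H2aw and H4bc24). The other 9 genes of the same naming in the RefSeq annotation were not analysed here. By class the 58 comprise 6 linker histones H1, 14 H2A, 14 H2B, 11 H3 and 13 H4 genes. By place, 47 lie on chromosome 13, 8 on chromosome 3, 2 on chromosome 11 and 1 on chromosome 6 (GRCm38).

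RNA was measured in 4 mammary gland tumours, numbered 1 to 4, of mice with the genotype MMTV-R26Met. In this line Cre recombinase under the MMTV promoter switches on a Met transgene at the Rosa26 locus in mammary epithelium. All 4 libraries were made from poly-A RNA and form 1 group, without normal or treated tissue, so the design asks how strongly each gene is expressed and how far the tumours differ. The labels give no age, sex or strain and do not tie tumours to mice, so the p-values measure the spread between these 4 samples only.

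Replication-dependent histone genes are short and mostly without introns, and are copied chiefly in S phase, when new DNA has to be packed. Their mRNAs usually end in a stem-loop in place of a poly-A tail. The stem-loop is bound by Slbp, and the U7 small nuclear ribonucleoprotein directs the cleavage just after it. H2A, H2B, H3 and H4 form the core of the nucleosome and H1 binds the DNA between nucleosomes. Replacement histones, from genes outside the clusters with ordinary poly-A tails, are made throughout the cell cycle. Because the libraries were selected for poly-A tails, the levels below are those of histone transcripts that passed this selection and not of all histone mRNA.

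The stem-loop itself is shown first because it separates these genes from nearly all others. In the annotated transcripts (GENCODE M21, GRCm38), 1 of 6 forms of the 16-base stem-loop was found after the stop codon in 40 of the 58 genes. A looser pattern that covers these forms was found, at any place, in 0.116% of all 58797 coding transcripts, histone transcripts included. The forms are shown with 6 bases on either side, written as DNA, with the stem-loop in capitals. Differences are counted from position 1 at the 5′ end of the capitals, against the form of H1f4.
H1f4, chr13:23621776-23621803, minus strand: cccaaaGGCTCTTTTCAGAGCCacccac
H2bc3, chr13:23747197-23747224, plus strand: cccaaaGGCTCTTTTAAGAGCCacccac
H2ac20, chr3:96220412-96220439, minus strand: caaaaaGGCTCTTTTTAGAGCCaccaaa
H4c8, chr13:23531452-23531479, plus strand: accaaaGGCCCTTTTCAGGGCCgcccac
H4c9, chr13:22040960-22040987, minus strand: cttaaaGGCCCTTTTTAGGGCCaccaca
H4c11, chr13:21735431-21735458, plus strand: cctaaaGGTCCTTTTCAGGACCaccaca

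The form of H1f4 was the commonest, in 22 genes of the classes H1 (3), H2A (8), H2B (7) and H3 (4). The form of H2bc3 differs from it by C10A in the loop and was found in 6 H1, H2B and H3 genes. H2ac20 alone had the form with C10T. All 11 stem-loops of H4 genes differed from it by T4C and A13G, a paired change in the stem. Of these, 7 had the form of H4c8 with no other change, 2 that of H4c9 with C10T as well, and 2 that of H4c11 with C3T and G14A as well. In 18 of the 58 genes none of these forms was found in the annotated transcripts, which says only that these letters are not there. For some of the 18, such as H2ac13, H3c10 and H4c12, the annotated transcript is the coding sequence alone. No stem-loop could be found in those.

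Promoters are shown next, since the classes differ in the letters they hold. RefSeq windows of 300 bases (250 before the start and 50 after it, GRCm38.p6) were held for 53 of the 58 genes. Exact letters were searched on both strands. The box named CCAAT was searched by that name. The TATA box was searched as TATAAA, the octamer as ATTTGCAT, the H4 element as GGTCCG and the H1 box as AAACACA, and none of these contains another. Of the 4 windows below, H1f2 stands for the H1 box, H2bc8 for the octamer, H4c3 for the H4 element, and H2bu2 is the gene that differed most between tumours. Capitals mark all matches to the 5 motifs on either strand.
H1f2, chr13:23738557-23738856, plus strand: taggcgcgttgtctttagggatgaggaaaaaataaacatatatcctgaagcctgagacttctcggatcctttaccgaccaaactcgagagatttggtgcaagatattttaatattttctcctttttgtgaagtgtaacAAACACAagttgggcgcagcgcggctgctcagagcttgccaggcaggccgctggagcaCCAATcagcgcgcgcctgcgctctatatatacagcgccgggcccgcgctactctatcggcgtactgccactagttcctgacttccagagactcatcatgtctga
H2bc8, chr13:23571150-23571449, plus strand: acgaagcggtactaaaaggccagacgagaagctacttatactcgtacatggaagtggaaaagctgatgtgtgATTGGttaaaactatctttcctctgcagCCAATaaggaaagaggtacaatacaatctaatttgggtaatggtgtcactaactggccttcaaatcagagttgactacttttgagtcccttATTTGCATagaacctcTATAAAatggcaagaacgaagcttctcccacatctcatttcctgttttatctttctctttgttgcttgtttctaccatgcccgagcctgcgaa
H4c3, chr13:23698409-23698708, minus strand: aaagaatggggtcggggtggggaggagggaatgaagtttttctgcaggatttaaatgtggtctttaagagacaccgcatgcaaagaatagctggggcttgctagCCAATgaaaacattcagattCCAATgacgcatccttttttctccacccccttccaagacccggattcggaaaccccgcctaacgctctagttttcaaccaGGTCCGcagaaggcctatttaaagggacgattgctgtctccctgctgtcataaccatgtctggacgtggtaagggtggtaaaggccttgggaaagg
H2bu2, chr11:58948661-58948960, plus strand: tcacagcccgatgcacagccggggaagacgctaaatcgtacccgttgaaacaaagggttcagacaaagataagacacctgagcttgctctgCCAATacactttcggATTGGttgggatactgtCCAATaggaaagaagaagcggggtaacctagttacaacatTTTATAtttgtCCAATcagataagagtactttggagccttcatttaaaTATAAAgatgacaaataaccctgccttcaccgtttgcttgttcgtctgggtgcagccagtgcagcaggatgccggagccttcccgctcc

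CCAAT was found in the windows of all 6 H1, 14 H2A, 12 H2B and 9 H3 genes with a window, but in only 3 of 12 H4 genes, against 37.9% of all 27025 windows. GGTCCG was found in 11 of 12 H4 windows, in 1 H2B and 1 H3 window, and in no H1 or H2A window, against 8.39% of all. AAACACA was found in 5 of 6 H1 windows, the exception being H1f1, in 2 of 14 H2A and in 2 of 12 H2B windows, against 7.14% of all. ATTTGCAT, the letters bound by the octamer factor Pou2f1, was found in 7 of 14 H2A and 6 of 12 H2B windows and in none of the other 3 classes, against 1.75% of all. TATAAA was found in 30 of the 53, against 14.2% of all.

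The octamer had a fixed orientation: it lay on the gene's own strand in all 6 H2B windows and on the opposite strand in all 7 H2A windows. The 13 windows held 10 different octamers, since 3 were shared by a head-to-head H2A and H2B pair: H2ac8 with H2bc8, H2ac12 with H2bc12, and H2ac1 with H2bc1. In each pair the H2B gene had the higher level. H2bc8 reached 290 ± 112 CPM per kb (SD, n = 4) and H2ac8 62.9 ± 31.5. H2bc12 reached 334 ± 141 and H2ac12 75.9 ± 38.8, and H2bc1 4.14 ± 2.00, where H2ac1 had 0 counts. A head-to-head pair not among these, H2ac11 with H2bc11, went the other way, at 71.9 ± 43.7 and 37.3 ± 30.8. CPM are counts scaled to library size (TMM), and CPM per kb divides them by gene length for comparisons between genes. Over the H2A and H2B genes with a window, the mean level was 131 ± 50.4 CPM per kb (SD, n = 4 tumours) in the 13 genes with the octamer and 146 ± 57.0 in the 13 without it. The first was the lower in each tumour, by little in tumour 2 (98.5 and 99.1), and the difference was not tested. Its direction rests on H2ac18, at 856 ± 214 CPM per kb the highest of the 13 without the octamer. With H2ac18 left out, the genes with the octamer had the higher mean in each tumour, although they include H2ac1 at 0.

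The libraries held 35220504 to 42809015 counts, and epithelial identity was checked with keratins and adhesion genes. Krt8 stood at 784 to 1232 CPM, Krt18, Epcam and Cdh1 were also expressed in every tumour, and the sperm protein genes Prm1, Prm2, Tnp1 and Tnp2 were at or near 0. Values of cell type markers in each tumour stand beside the last histone results. Over all 15808 genes tested, 574 (3.63%) passed a test of the spread between tumours (edgeR deviance against the dispersion trend over genes, Benjamini-Hochberg adjusted p under 0.05). A gene that passes varies more than others of a similar level.

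The 58 histone genes together were highest in tumour 3, intermediate in tumour 1 and lowest in tumours 2 and 4. Their counts were 222589, 124512, 269549 and 137583 in tumours 1 to 4. As shares of the library, with exact binomial 95% limits, tumour 1 had 0.520% (0.518 to 0.522), tumour 2 0.354% (0.352 to 0.355), tumour 3 0.731% (0.728 to 0.734) and tumour 4 0.329% (0.328 to 0.331). No interval overlapped another, but they cover counting error only. The summed level was 5235, 3591, 7026 and 3351 CPM, a mean of 4801 ± 1703 (SD, n = 4), with 2.10-fold between the lowest and the highest tumour. Without tumour 3 this fold was 1.58. In bulk tissue, fewer cells in S phase and less histone RNA per cell cannot be told apart.

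The pattern ran through most of the genes, although few of them passed a test alone. Of 58 genes, 54 had enough counts to be tested. Of these, 47 (87.0%) were highest in tumour 3, against 29.7% of all genes tested. Tumour 1 was the highest in 5 (22.9% of all genes), tumour 4 in 2 (28.5%) and tumour 2 in 0 (18.9%). In 46 of 54 (85.2%) tumours 1 and 3 both stood above tumours 2 and 4, against 22.3% of all genes. The full order tumour 3, 1, 2, 4 was seen in 29 of the 54 and the order 3, 1, 4, 2 in 14. The lowest level was in tumour 4 for 33 genes (27.8% of all genes), in tumour 2 for 18 (19.7%), in tumour 1 for 3 (24.8%) and in tumour 3 for 0 (27.7%). With median-of-ratios scaling or library size alone, the counts of 47 highest in tumour 3, 33 lowest in tumour 4 and 18 lowest in tumour 2 were the same. The share of all genes highest in tumour 3 was 29.3% and 34.8% under these scalings.

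The tumours differed by over 2-fold in 44 of the 54 (81.5%), against 37.0% of all genes tested. The median fold from lowest to highest tumour was 2.66, against 1.73 over all genes, and the median SD of log2 CPM was 0.60 against 0.35. The edgeR test called 1 of the 54 (1.85%, against 3.63% of all genes), and 7 of 54 had an unadjusted p under 0.05, against 8.74% of all genes. With 1 call among 54 genes, the share called is near that of all genes. The common biological coefficient of variation, against which single genes are set, was 0.411. In simulated counts at the median level of these genes, the test found 0% of 2-fold and 18.5% of 4-fold changes in 1 library. A gene that was not called may therefore still differ between tumours. No test of the list as a whole was made.

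**Figure D1:**
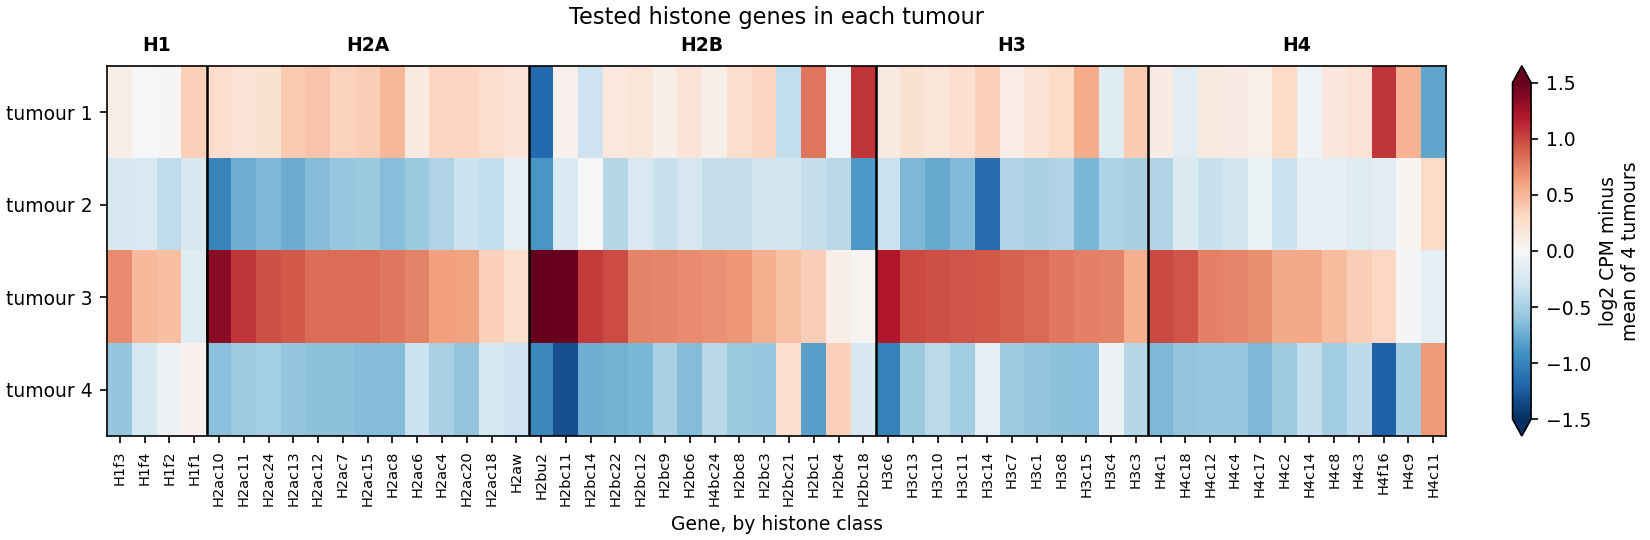
Each column is 1 of the 54 tested histone genes, grouped by class, and each line of tiles is a tumour; colour gives the deviation of log2 CPM from the gene's mean of 4 tumours, with values past 1.5 drawn at the end of the scale. Tumour 3 is the highest in 47 genes, and H2bu2 and H2bc11 have its deepest red among the H2B genes.

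Linker histone H1 varied least of the 5 classes. Its 6 genes summed to 668, 525, 904 and 537 CPM in tumours 1 to 4, a 1.72-fold range. The somatic forms H1f2, H1f4 and H1f3 made up most of this. H1f2 (chr13:23738807-23739531) stood at 220, 167, 297 and 204 CPM. H1f4 (chr13:23621777-23622558) stood at 211, 178, 294 and 174 CPM. H1f3 (chr13:23555032-23555807) stood at 180, 142, 273 and 112 CPM. All 3 were highest in tumour 3. Their levels per length kept 1 order in every tumour, at means of 306 ± 75.8, 274 ± 71.3 and 228 ± 90.2 CPM per kb (SD, n = 4).

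H1f1 departed from this order. It stood at 56.5, 37.5, 38.8 and 46.3 CPM, highest in tumour 1 and with tumour 3 near the lowest value. H1f1 is also the H1 gene without AAACACA in its promoter window. H1f5 had 54, 5, 34 and 18 counts and was too low to test. H1f6, the linker histone of male germ cells, had 9, 1, 0 and 9 counts, beside which the sperm protein genes were at or near 0.

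H2A genes summed to 1312, 782, 1653 and 810 CPM, a 2.12-fold range, and all 13 tested were highest in tumour 3. H2ac18 (chr3:96245497-96246052) was the most abundant of the 58 genes, at 559, 361, 596 and 388 CPM, or 856 ± 214 CPM per kb (SD, n = 4). Tumours 1 and 3 stood above the other two, with 1.65-fold between the extremes. The coding sequence of H2ac18 is identical to that of H2ac19, a neighbouring gene not analysed here, so reads of both may stand in its count. H2ac24 (chr13:21833024-21833475) stood at 159, 85.4, 264 and 95.7 CPM, a 3.09-fold range (edgeR adjusted p = 0.631). In H2ac24 tumours 2 and 4 were the low pair. H2ac20 (chr3:96220413-96220880) stood at 91.5, 58.6, 111 and 48.7 CPM. The most variable H2A gene was H2ac10, at 8.37, 3.49, 17.9 and 4.53 CPM (edgeR adjusted p = 0.828). H2ac1, a testis form, had 0 counts in every tumour, which allows up to 0.0706, 0.0865, 0.0782 and 0.0731 CPM in tumours 1 to 4.

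H2B genes summed to 1095, 797, 1551 and 723 CPM, a 2.15-fold range, and 11 of 14 were highest in tumour 3. The 3 most abundant per length, all core nucleosome H2B genes of chromosome 13, had the same order of tumours. H2bc12 (chr13:22035821-22036320) stood at 177, 133, 261 and 97.2 CPM. H2bc8 (chr13:23571400-23571863) stood at 152, 99.6, 200 and 86.7 CPM. H2bc3 (chr13:23746734-23747223) stood at 163, 106, 188 and 87.5 CPM. In all 3 that order was tumour 3, 1, 2, 4, and the edgeR adjusted p was 1.00. H2bc1, the H2B of male germ cells, had 2.85, 1.27, 2.11 and 0.925 CPM.

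H2bu2 was the only 1 of the 54 tested genes past the test. H2bu2 (Entrez gene 78303, chr11:58948911-58949372, formerly Hist3h2ba) had 18, 18, 290 and 20 counts in tumours 1 to 4, or 0.423, 0.519, 7.56 and 0.487 CPM. Tumour 3 stood 17.9-fold above the lowest tumour, and the other 3 lay close together (edgeR adjusted p = 0.000525). The call rests on tumour 3: without it the edgeR adjusted p was 1.00. It was also lost with no count filter (0.0669), with a filter of a mean of at least 1 CPM (0.0513) and with Holm adjustment (0.117). DESeq2 flagged none of the 54 as a dispersion outlier, that is, as far more variable than its trend over genes. That flag is not a test and has no p-value. The pseudogene H2bu1-ps, left out by the rule, had 22, 17, 129 and 41 counts (edgeR adjusted p = 0.180). H2aw, the H2A gene next to H2bu2, stood at 63.1, 49.6, 65.9 and 44.1 CPM, with tumours 1 and 3 close together (edgeR adjusted p = 1.00).

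Next to H2bu2, the lowest unadjusted p among the 54 was that of H2bc11, at 14.1, 11.5, 37.8 and 5.41 CPM, highest in tumour 3 (edgeR adjusted p = 0.210). The remaining 5 with an unadjusted p under 0.05 were H3c14, H2bc14, H2ac13, H3c13 and H2ac11, with edgeR adjusted p from 0.508 to 0.569. All 5 were highest in tumour 3. These genes, and the exceptions to the tumour order, were named after their values were seen.

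H3 genes had the widest range of the summed level, at 777, 426, 1147 and 444 CPM, or 2.69-fold. All 11 were highest in tumour 3 and all 11 spanned over 2-fold, but none passed the test. H3c11 (chr13:21782915-21783397) stood at 124, 65.8, 200 and 72.9 CPM (edgeR adjusted p = 0.639). H3c7 (chr13:23544052-23544954) stood at 151, 102, 256 and 95.1 CPM (edgeR adjusted p = 0.982). H3c3 (chr13:23745042-23745521) stood at 97.8, 52.5, 108 and 55.1 CPM. Tumours 2 and 4 were the low pair in each. H3c6 was the most variable, at 12.1, 8.77, 25.3 and 5.46 CPM (edgeR adjusted p = 0.933).

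H4 genes summed to 1382, 1062, 1770 and 837 CPM, a 2.12-fold range. Tumour 4 was the lowest in 11 of the 12 tested H4 genes and tumour 2 in 0. In H3 the lowest was tumour 2 in 7 of 11 genes and tumour 4 in 4, and on chromosome 13 alone 4 and 4. This difference between the classes was not tested. H4c8 (chr13:23531044-23531478) stood at 293, 240, 362 and 182 CPM, or 618 ± 176 CPM per kb (SD, n = 4). H4c3 (chr13:23698084-23698458) stood at 237, 178, 264 and 155 CPM, or 556 ± 135 CPM per kb. Both followed the order tumour 3, 1, 2, 4. H4c9 (chr13:22040960-22041362) did not: at 212, 151, 145 and 103 CPM it was highest in tumour 1. H4f16, the only member on chromosome 6 (chr6:136803993-136804431), stood at 11.6, 4.93, 6.86 and 2.39 CPM, again highest in tumour 1 (edgeR adjusted p = 1.00). H4c6 had 0 counts in every tumour.

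**Figure D2:**
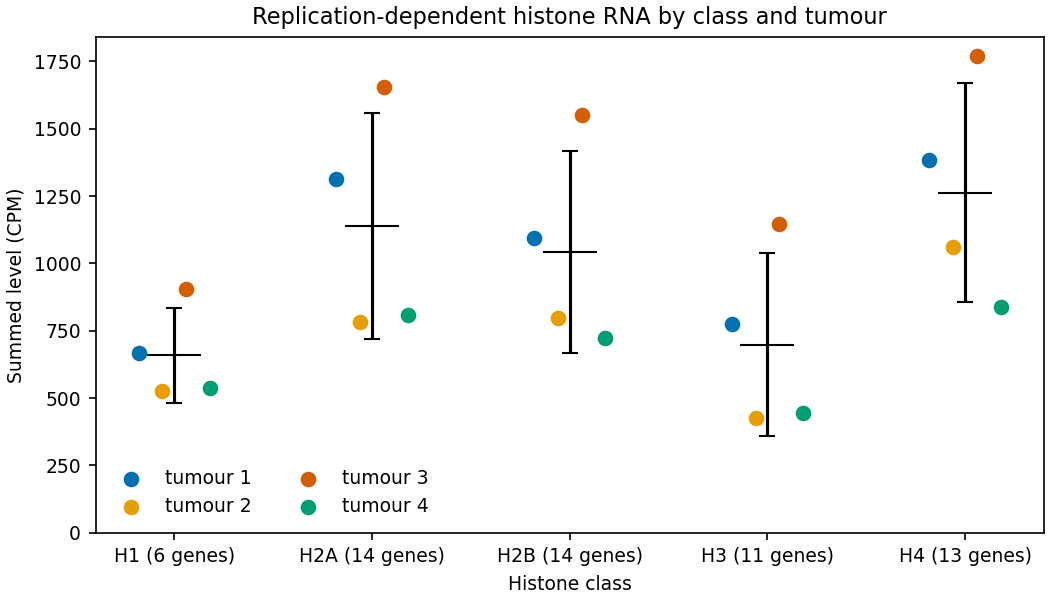
Summed level in CPM (vertical axis) of each histone class in tumours 1 to 4 (points), with the mean (short line) and SD (error bars, n = 4). Tumour 3 is the highest point in every class, and H3 runs from 426 to 1147 CPM while H1 runs from 525 to 904.

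In 7 of the 54 tested genes tumour 3 was not the highest. H1f1, H4c9, H4f16, H2bc1 and H2bc18 were highest in tumour 1, and H2bc18 stood at 32.5, 8.54, 15.9 and 13.2 CPM. H2bc4, at 106, 81.9, 117 and 139 CPM, and H4c11, at 0.564, 1.18, 0.886 and 1.51 CPM, were highest in tumour 4. None of the 7 passed the test.

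Many of the genes encode the same protein, which bears on how far a count belongs to 1 gene. The 13 H4 genes have 12 different coding sequences and encode 1 protein of 103 residues. The 11 H3 genes encode 2 proteins, the 14 H2A genes 8, the 14 H2B genes 11 and the 6 H1 genes 6. In all, 36 members share their protein with another member. Identical coding sequences joined H4c17 with H4c18 and H3c14 with H3c15, and joined H2ac18, H2ac24 and H4bc24 each with a gene not analysed here. The way the counting treated reads that fit several genes, or reads on the opposite strand, is unknown from the labels and the table, and counts of such copies are therefore uncertain. Leaving out all 36 brought the summed level to 1868 CPM and the fold between tumours to 1.89. The 36 include all 13 H4 and all 11 H3 genes, while H2ac18 stays in. Leaving them out therefore does not measure the effect of reads that fit several genes.

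The cluster on chromosome 13 held most of the histone reads. It gave 81.2 ± 1.46% (SD, n = 4) of histone counts, chromosome 3 gave 17.5 ± 1.40%, chromosome 11 gave 1.25 ± 0.154% and chromosome 6 gave 0.132 ± 0.0656%. Chromosome 13 also holds 47 of the 58 genes. Per gene and length, chromosome 13 averaged 165, 116, 227 and 102 CPM per kb in tumours 1 to 4, and chromosome 3 averaged 225, 138, 263 and 144. The 2 genes of chromosome 11 averaged 62.5, 49.4, 73.0 and 44.0 CPM per kb.

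The log2 ratio of chromosome 13 to chromosomes 3 and 11 together was −0.22, −0.05, 0.01 and −0.28, a mean of −0.14 ± 0.14 (SD, n = 4; exact two-sided permutation test by sign flips, p = 0.25). With 4 pairs the smallest p this test allows is 0.125. Against chromosome 3 alone chromosome 13 was lower in all 4 tumours (mean log2 ratio −0.35 ± 0.14, n = 4; exact permutation p = 0.125, adjusted over 3 comparisons 0.1875). Against chromosome 11 alone it was higher in all 4 (1.37 ± 0.20, n = 4; exact permutation p = 0.125, adjusted 0.1875). The direction of the pooled ratio rests on H2ac18: without it the mean was 0.79, and with the median over genes in place of the mean it was 0.12.

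Class by class, the clusters differed in opposite directions. The 2 H2A genes of chromosome 3 averaged 511 ± 137 CPM per kb (SD, n = 4), and the 11 of chromosome 13 averaged 98.5 ± 49.9. The 2 H2B genes of chromosome 3 averaged 18.6 ± 10.5 and the 11 of chromosome 13 130 ± 50.2. H3 stood at 110 ± 56.8 on chromosome 3 (3 genes) and 109 ± 51.6 on chromosome 13 (8 genes), with chromosome 3 the lower in tumour 2 (58.1 against 69.5) and the higher in tumour 1 (131 against 119). H4 stood at 152 ± 45.4 on chromosome 3 (H4c14 alone) and 264 ± 84.6 on chromosome 13 (11 genes). The means on chromosome 3 hide unlike genes: H2ac18 stood at 856 and H2ac20 at 166 CPM per kb, and H2bc18 at 35.6 and H2bc21 at 1.73. The gap in H2A is therefore carried mainly by H2ac18. These class differences were not tested.

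The tumour pattern was shared by the clusters. Tumour 3 was the highest in 38 of 43 tested genes on chromosome 13 and in 7 of 8 on chromosome 3. A group's score in a tumour averages, over its tested genes, the deviation of log2 CPM from each gene's own mean. It was 0.18, −0.39, 0.71 and −0.50 for chromosome 13. For chromosome 3 it was 0.29, −0.56, 0.58 and −0.32. The lowest tumour was number 4 in 29 of 43 genes on chromosome 13, and number 2 in 5 of 8 on chromosome 3. This difference was not tested. Within chromosome 13, a gap of over 200 kb parts a block A of 18 genes from a block B of 29. Scores had an SD of 0.61 in block A and 0.53 in block B, and 15 of 17 and 23 of 26 tested genes were highest in tumour 3.

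**Figure D3:**
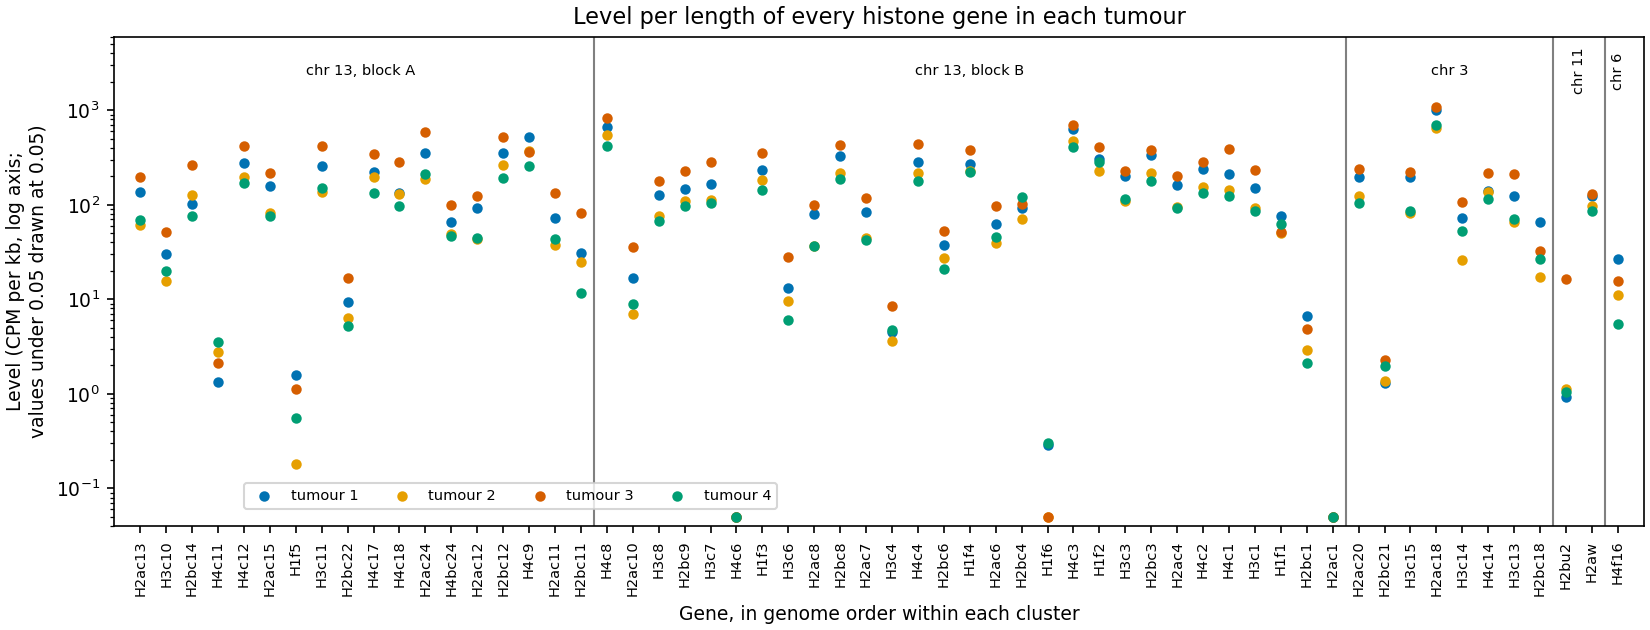
Level of each of the 58 genes in CPM per kb (log axis) in tumours 1 to 4, in genome order within chromosome 13 (blocks A and B), 3, 11 and 6; values under 0.05 are drawn at 0.05. H2ac18 on chromosome 3 is the highest at a mean of 856 CPM per kb, and both blocks of chromosome 13 mix abundant genes with genes near 0.

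The annotated 3′ end was set beside the level. In 18 genes the transcript with a stem-loop ends within 100 bases of it, and these averaged 219 ± 79.9 CPM per kb (SD, n = 4). In 22 genes it goes on for over 100 bases, with a mean of 150 ± 46.4, and the 18 genes without these letters averaged 88.3 ± 39.5. These means mix unlike genes: the first group holds H2ac18 at 856 and H4c6 at 0, the last H2ac1 at 0 and H2bc21 at 1.73. They also depend on the length used: for H1f3, in the second group, it is 776 bases, while the annotated transcript has 7425. The 18 genes without these letters are not a known class of 3′ end. For some, such as H2ac13 and H3c10, the annotation holds only the coding sequence, so a stem-loop could not be found. The first group was highest in tumour 3 in 17 of 17 tested genes, the others in 18 of 21 and 12 of 16. The scores in tumour 3 were 0.78, 0.70 and 0.68. The low tumours were not the same: the first group scored −0.36 in tumour 2 and −0.61 in tumour 4, and the genes without these letters −0.55 and −0.41. These differences were not tested. Which 3′ ends were used in these tumours was not measured.

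Genes that act on histone mRNA or histone proteins had a median SD of log2 CPM of 0.18 (3′ processing), 0.27 (transcription), 0.22 (decay) and 0.34 (chaperones), against 0.60 for the 54 histone genes and 0.35 for all genes. These differences were not tested. Counts past the test are read against 3.63% of all genes, and unadjusted ones against 8.74%. Slbp, which binds the stem-loop, stood at 35.4, 23.4, 64.4 and 23.0 CPM, the same order of tumours as most histone genes (edgeR adjusted p = 0.982). Of 20 genes of histone pre-mRNA 3′ processing, 0 passed the test, with 0 at an unadjusted p under 0.05, and their scores ran from −0.08 to 0.13. Of 13 tested genes of histone transcription 0 passed, also with 0 unadjusted. Among them Npat, the coactivator at the histone clusters, had 19.7, 22.1, 21.0 and 16.3 CPM, and Hinfp, the factor of H4 promoters, 21.3, 25.7, 16.4 and 18.3. Both were highest in tumour 2, and Hinfp was lowest in tumour 3. The 13 genes together scored −0.05, −0.01, 0.28 and −0.22 in tumours 1 to 4, and 6 of the 13 were highest in tumour 3. Among the 6 was Ccna2, at 83.3, 63.0, 138 and 54.2 CPM. Of 12 genes of histone mRNA decay, 1 passed: Tut4, a terminal uridylyl transferase, at 6.66, 6.37, 51.6 and 16.6 CPM (edgeR adjusted p = 0.0116). The Tut4 call was lost without tumour 1 (0.0626), 2 (0.109) or 3 (1.00) and with Holm adjustment (1.00). Of 20 histone chaperones 0 passed, with 0 unadjusted, and Chaf1b, a subunit of the chromatin assembly factor, was the most variable at 18.1, 15.7, 49.7 and 21.3 CPM.

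Replacement histones summed to 1932, 1845, 2255 and 1862 CPM, a 1.22-fold range, in which H3f3a and H3f3b weigh most. By score they too were highest in tumour 3, at −0.05, −0.16, 0.52 and −0.31, with 7 of 10 tested genes highest there. Among the 7 were the genes of widest spread, Macroh2a2, Cenpa and H2ax (SD of log2 CPM 1.83, 0.93 and 0.55). The rest of the 10, H3f3a, H1f0 and H2aj, were lowest in tumour 3, with H1f0 at 244, 235, 182 and 234 CPM. The score therefore does not show replacement histones in general to be high there. The H3 replacement genes H3f3b and H3f3a stood at 742, 778, 1000 and 749 CPM and at 398, 373, 345 and 356 CPM. The ratio of summed clustered to summed replacement histones was 2.71, 1.95, 3.12 and 1.80 in tumours 1 to 4. Of 10 tested, 1 passed: Macroh2a2, a macroH2A variant, at 1.41, 2.65, 17.6 and 0.974 CPM, high in tumour 3 alone (edgeR adjusted p = 0.00572). It was lost without tumour 3 and with Holm adjustment (1.00 in both).

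Proliferation genes, like the histone genes, were mostly highest in tumour 3. The score of the 54 histone genes was 0.19, −0.41, 0.72 and −0.49 in tumours 1 to 4. Over 24 genes of S phase replication it was −0.05, −0.37, 0.78 and −0.35, with 24 of 24 highest in tumour 3. Over 18 genes of mitosis it was 0.19, −0.48, 0.71 and −0.42, with 17 of 18 highest in tumour 3. None of the 24 and none of the 18 passed the test, with 3 and 0 at an unadjusted p under 0.05. Examples are Pcna, the replication clamp, at 113, 90.7, 174 and 89.1 CPM, and Top2a, a topoisomerase, at 338, 198, 595 and 187 CPM. The histone score exceeded the S phase score by 0.24 in tumour 1 and differed from it by −0.04, −0.06 and −0.14 in tumours 2 to 4. The part of proliferation in the histone levels was not tested.

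**Figure D4:**
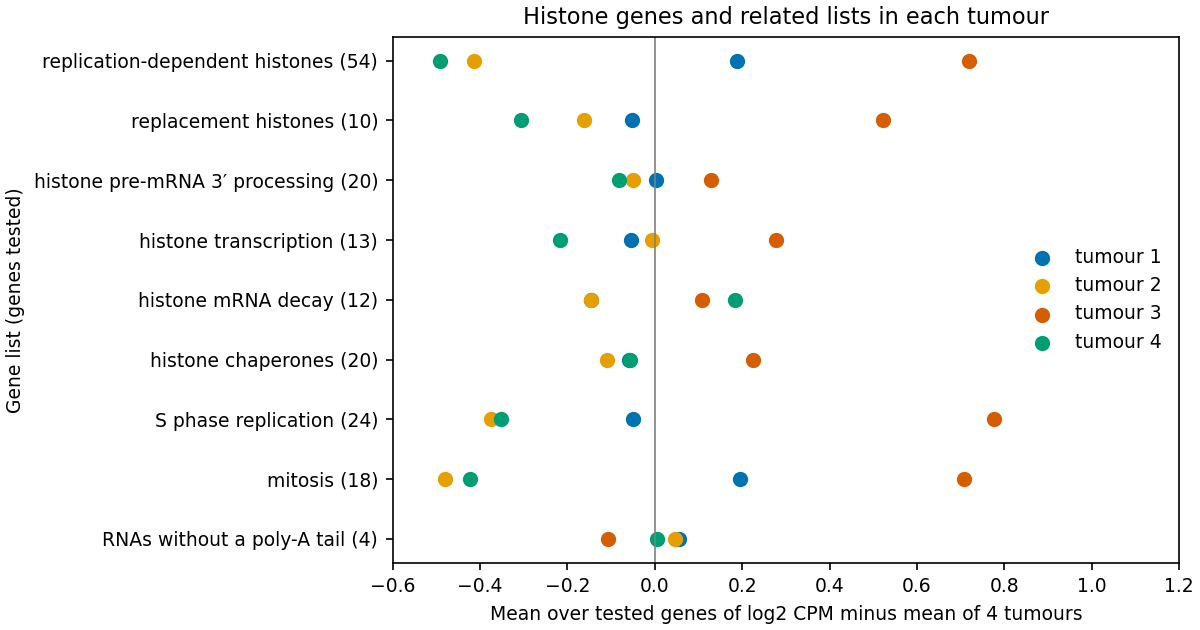
Score of each gene list (horizontal axis, log2 units) in tumours 1 to 4 (points), with the number of tested genes in brackets. Histone, S phase and mitosis lists have tumour 3 between 0.71 and 0.78, whereas the RNAs without a poly-A tail have it at −0.11.

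Other RNAs that lack a poly-A tail did not follow the histone order. Of 16 such RNAs fixed as a list, 5 had a count and 4 were tested, with scores of 0.06, 0.05, −0.11 and 0.01, lowest in tumour 3. Terc, the telomerase RNA, stood at 9.67, 11.1, 5.97 and 9.81 CPM, and Scarna2, a small Cajal body RNA, at 85.5, 56.4, 54.7 and 66.1 CPM. The other 2 tested were not lowest in tumour 3. Snord118, at 0.753, 0.779, 1.25 and 1.14 CPM, was highest there, and Rn7s1, at 8.14, 10.2, 8.03 and 6.04 CPM, was lowest in tumour 4. These 4 genes are too few to measure how well RNA without a tail was removed, and its part in the histone levels was not tested. Cell type markers were scored in the same way. Scores in tumours 1 to 4 were −0.38, 0.17, −0.10 and 0.30 for 4 epithelial genes, and −0.58, 0.18, −0.00 and 0.40 for 3 fibroblast genes. They were −0.42, 0.34, −0.15 and 0.23 for the 2 tested of 4 leukocyte genes, and 0.43, −0.07, 0.04 and −0.39 for 2 endothelial genes. Epithelial, fibroblast and leukocyte scores were thus higher in tumours 2 and 4 than in tumours 1 and 3, and the sums ran from 2277 to 3494, 1548 to 2542 and 245 to 463 CPM. In the fibroblast list only Dcn, at 9.27, 35.8, 16.4 and 25.6 CPM, was higher in tumour 2 than in tumour 3. Col1a1 and Col1a2 were higher in tumour 3 than in tumour 2, as was the fibroblast sum (2082 and 1736 CPM). None of these marker genes passed the test. The globin genes Hba-a1 and Hbb-bs, markers of red blood cells, were lowest in tumour 3. Hba-a1 stood at 15.1, 16.3, 2.01 and 12.1 CPM and Hbb-bs at 20.1, 17.9, 1.82 and 5.60 CPM (edgeR adjusted p = 0.384 and 0.0871). The part of these cell types in the histone levels was not tested.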

How the data were processed

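Poly-A RNA of 4 tumours was sequenced as paired reads after random priming, per the labels' protocols. The authors deposited 1 table of counts per Entrez gene, whole numbers with no normalization. Per the submitters' processing notes, FastQC, GRCm38 and mm10 were used. An aligner, counter, annotation or strand setting is not given in the sources used here. Symbols from RefSeq GRCm38.p6 matched 24480 of 28440 genes (97.9% of counts). The number of per-sample columns not used was 0.

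The deposited counts went into edgeR 4.0.16 under R 4.3.3 (TMM scaling; filterByExpr with a minimum count of 10 in 4 libraries and 15 in total; prior count 2 for log2 CPM). With 1 group there is no contrast, so a negative binomial model with an intercept alone was fitted per gene at the dispersion trend, its deviance was compared with chi-square at 3 degrees of freedom, and p-values were adjusted by Benjamini-Hochberg over all 15808 genes (threshold 0.05). The test was checked on simulated counts with 1 library changed, in 200 genes at the median level of the histone genes. It found 0% of 2-fold, 18.5% of 4-fold and 62.5% of 8-fold changes. Gene length is the RefSeq span or, for 4 genes with a span over 3000 bases (H2bc22, H4bc24, H2bc6, H2bc4), the GENCODE exon union, so their level per kb is uncertain. Levels per kb of transcripts this short are approximate.

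Members and lists were chosen with earlier results of these data known. Named members are those past the test, the 3 highest per length and the most variable of each class, the highest on each chromosome and the testis forms. For each related list the rule gave the 2 highest, the most variable and those past the test, but not all of these are printed. Npat, Hinfp and genes described as exceptions were named after their values were seen. Other scalings, filters and member sets were tried as alternatives, and the dispersion outlier flag of DESeq2 1.42.0, which is not a test, was set beside them. Intervals, and the limit of 3 counts behind a 0, cover counting error only. One marker gene is not reported here.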

Additional observations from a re-analysis of the deposited data

Results flagged for a closer look

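Among 40 sets of 4 values checked for a tumour far from the other 3 (Dixon's criterion, which chance meets in about 1 of 20 sets), 2 met it. One was the level of H2bu2 in tumour 3, at 7.56 CPM against 0.423 to 0.519 CPM in the other tumours. The other was the score of the histone chaperones in tumour 3, at 0.23 against −0.11 to −0.06 in the others. None of the 20 chaperones passed the test between tumours alone.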

How the results depend on the processing

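No paired analysis was possible because the 4 tumours form 1 group. The number of genes past the test, 574, became 895 with no count filter and 198 with Holm adjustment. It ran from 367 to 417 when 1 tumour was left out. The number of histone genes past the test, 1, became 0 with no count filter, with a mean of at least 1 CPM and with Holm adjustment. It was 0 to 1 when 1 tumour was left out (0 without tumour 3). The DESeq2 flag for dispersion outliers, which is not a test, marked 91 genes, of which 0 were histone genes. For H2bu2 the edgeR adjusted p was 0.0669 with no count filter, 0.0513 with a mean of at least 1 CPM and 0.117 with Holm adjustment, and ran from 0.00384 to 1.00 when 1 tumour was left out. The summed histone level was 1868 CPM without the genes that share a protein, which leaves out every H3 and H4 gene. It was 4011 to 5313 CPM when 1 tumour was left out. The fold of the summed level between tumours ran from 1.58 to 2.10. The chromosome 13 share was 90.4% without H2ac18 and 65.7% without the genes that share a protein, and so without H3 and H4. It was 80.6 to 81.6% when 1 tumour was left out. The log2 ratio of chromosome 13 to chromosomes 3 and 11 changed sign to 0.79 without H2ac18 and to 0.12 with the median over genes, and ran from −0.19 to −0.09 when 1 tumour was left out. In alternatives chosen after seeing the data it was −0.05 without the 4 genes with long spans and −0.29 without H2bu2. Fewer samples or genes apart, the cause of these changes was not tested. The SD of the histone score, 0.57, ran from 0.38 (without tumour 3) to 0.68. Too few counts left 4 of the 58 genes (H1f5, H1f6, H4c6 and H2ac1) untested, and the cause was not tested.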
